A study of Mus musculus with 29 samples.

Results

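The genes described are 9 mouse genes that write, erase or read methylation of cytosine in CpG dinucleotides: the DNA methyltransferases Dnmt1, Dnmt3a and Dnmt3b, the methyltransferase partner Uhrf1, the dioxygenases Tet1, Tet2 and Tet3, and the methyl-CpG binding proteins Mbd1 and Mbd2. They were taken by exact gene symbol from an RNA-seq table of 24062 genes, all 9 were found, and all 9 were among the 14024 genes that passed the filter on low counts. Their RNA was measured in 15 libraries, 3 from each of 5 populations of retinal neurons sorted by fluorescence from adult mice. Chromatin accessibility at their genes was taken from 12 ATAC-seq libraries, 2 for each of the same populations and 2 for green cones, and from the peak lists of 14 ATAC-seq libraries.

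Bipolar cells relay photoreceptor signals to the inner retina, and they were taken as a whole (pan-BC) or as the ON-BC and OFF-BC types, which respond to light of opposite sign. The pan-BC RNA came from Otx2-GFP+/- mice and the ON-BC and OFF-BC RNA from Otx2-GFP+/-; Grm6-YFP+/+ mice, in which ON bipolar cells carry the additional YFP, all at postnatal days 42 to 48. The ATAC-seq libraries of all 3 bipolar populations came from Otx2-GFP+/-; Grm6-YFP+/+ mice. Bipolar donors were heterozygous for a GFP cassette placed at the end of the endogenous Otx2 gene, which the photoreceptor donors did not carry. Rods came from Nrl-eGFP mice, green cones from Opn1mw-GFP mice, and blue cones from Nrl-eGFP;NrlKO mice, all at postnatal day 56. The photoreceptor libraries came from an earlier study by the same laboratory, so cell class cannot be told apart from age, reporter and study. Blue cones are a model: in a retina without Nrl, the cells that would become rods take on the features of short-wavelength cones. OFF-BC were sorted 2 times, while the other RNA populations were sorted once. The replicates are described as biological, but no source used here ties them to separate animals, so p-values measure the spread between these libraries, which may be in part technical.

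Between 12329548 and 26266746 reads per library were counted on genes. The populations matched their labels by summed marker genes. The 8 rod markers summed to 1822800 to 2504630 normalized counts for rods, and to 0.168 to 1.95% of the rod mean in the 9 bipolar libraries. The 10 bipolar markers were at 0.741 to 1.07% of the pan-BC mean in rods. The 8 cone markers were at 2.72 to 4.31% of the blue cone mean in pan-BC and 1.82 to 6.37% in OFF-BC (6.37% in replicate 3). In ON-BC they were at 0.311 to 0.359% and in rods at 0.660 to 0.667%. The part of cone RNA in the differences below was not tested. The 6 ON bipolar markers summed to 110613 to 126702 normalized counts for ON-BC and 6721 to 11593 for OFF-BC. The 3 OFF bipolar markers summed to 426 to 643 for ON-BC and 43490 to 66169 for OFF-BC. In blue cones the 8 rod markers reached 8.01 to 12.2% of the rod mean as a sum. By gene, 7 of these 8 were called higher in rods than in blue cones (limma 2-fold test). The median log2 difference over all 8 was 7.65. Bipolar markers in blue cones were at 12.7 to 14.8% of the pan-BC mean, or 0.725 to 1.21% without Cabp5. That gene, for a calcium-binding protein, alone was at 25242 to 29460 normalized counts there. The 8 Müller glia markers summed to 12705 to 15737 normalized counts for blue cones, 6814 to 8156 for pan-BC and 1927 to 3136 for rods. Without Clu, which made up most of these sums outside rods, the other 7 came to 876 to 1160 for blue cones, 1482 to 1927 for pan-BC and 1177 to 1870 for rods, and their part in the differences below was not tested. Nrl, the gene deleted in the blue cone donors, was at 486 to 764 normalized counts for blue cones and 11476 to 16599 for rods. Normalized count is used throughout for reads divided by the size factor of the library, and a difference in it within sorted cells cannot separate fewer expressing cells from less RNA per cell.

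DNA methylation in vertebrates is laid down by Dnmt3a and Dnmt3b on unmethylated CpGs and copied to the new strand at replication by Dnmt1, which Uhrf1 brings to hemimethylated sites. The 3 TET enzymes oxidize 5-methylcytosine to 5-hydroxymethylcytosine and further products, which base excision repair can replace with cytosine. Mbd1 and Mbd2 bind methylated CpGs and are linked to histone modifying complexes, Mbd2 to the NuRD complex. Neurons no longer divide and hold much 5-hydroxymethylcytosine, and mature mouse rods pack most of their genome into an unusually dense, inverted nucleus.

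The promoters of the 3 TET genes and of the 2 de novo methyltransferases are shown because accessibility at these starts is described further on, and because CpGs are what these enzymes act on. The sequences run from 250 bases before to 50 after the RefSeq start, with build GRCm38.p6, written in the direction of transcription and with CpG dinucleotides in capitals. They cover chr10:62887275-62887574 (Tet1, minus strand), chr3:133544341-133544640 (Tet2, minus strand), chr6:83441629-83441928 (Tet3, minus strand, the start of the shorter transcript), chr12:3806730-3807029 (Dnmt3a, plus strand) and chr2:153649199-153649498 (Dnmt3b, plus strand).
Tet1: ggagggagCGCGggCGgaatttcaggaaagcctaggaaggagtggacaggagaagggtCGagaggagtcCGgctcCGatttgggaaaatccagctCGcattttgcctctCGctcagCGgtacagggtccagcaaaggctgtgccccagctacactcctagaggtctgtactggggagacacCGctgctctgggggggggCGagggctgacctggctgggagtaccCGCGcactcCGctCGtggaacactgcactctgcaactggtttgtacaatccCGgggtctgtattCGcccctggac
Tet2: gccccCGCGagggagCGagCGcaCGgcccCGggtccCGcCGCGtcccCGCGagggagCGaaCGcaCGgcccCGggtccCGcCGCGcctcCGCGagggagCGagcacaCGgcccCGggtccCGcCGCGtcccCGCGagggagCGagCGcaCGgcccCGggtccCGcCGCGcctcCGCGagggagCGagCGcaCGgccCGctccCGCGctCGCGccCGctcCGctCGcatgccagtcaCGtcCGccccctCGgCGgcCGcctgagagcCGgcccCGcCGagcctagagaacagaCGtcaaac
Tet3: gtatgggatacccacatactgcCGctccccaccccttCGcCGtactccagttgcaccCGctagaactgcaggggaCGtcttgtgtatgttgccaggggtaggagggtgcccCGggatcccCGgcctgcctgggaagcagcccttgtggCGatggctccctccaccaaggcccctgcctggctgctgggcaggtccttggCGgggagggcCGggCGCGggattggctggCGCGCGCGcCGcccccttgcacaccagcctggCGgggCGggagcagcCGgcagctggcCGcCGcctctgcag
Dnmt3a: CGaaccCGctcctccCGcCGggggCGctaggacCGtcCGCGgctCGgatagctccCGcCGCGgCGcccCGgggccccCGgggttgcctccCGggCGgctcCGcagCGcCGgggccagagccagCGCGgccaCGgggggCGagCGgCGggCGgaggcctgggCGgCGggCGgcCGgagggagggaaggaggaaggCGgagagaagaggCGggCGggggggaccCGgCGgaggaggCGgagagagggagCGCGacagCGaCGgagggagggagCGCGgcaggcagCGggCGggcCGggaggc
Dnmt3b: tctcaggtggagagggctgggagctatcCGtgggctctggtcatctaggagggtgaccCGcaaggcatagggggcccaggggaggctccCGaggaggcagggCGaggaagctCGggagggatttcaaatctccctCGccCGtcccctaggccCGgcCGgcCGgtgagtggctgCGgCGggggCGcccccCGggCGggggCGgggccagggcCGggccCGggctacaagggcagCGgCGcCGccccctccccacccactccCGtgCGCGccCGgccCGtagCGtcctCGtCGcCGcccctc

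Across 32851 RefSeq promoters of this length the median number of CpGs was 7. The Tet2 promoter held 57 CpGs, more than 99.8% of all promoters had, with 81.3% G and C. The Dnmt3a promoter held 46, the Dnmt3b promoter 30, the Tet3 promoter 22 and the Tet1 promoter 17, so that Tet1 had the fewest CpGs of the 3 TET promoters but still more than 68.6% of all promoters. Of the other starts with a RefSeq entry, the 3 of Dnmt1 held 2, 12 and 33 CpGs, the 2 of Uhrf1 held 12 and 33, and the other two of Dnmt3a held 47 and 18. CpG-rich promoters are usually free of methylation whether or not the gene is active, and methylation itself was not measured here.

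Of the 9 genes, Tet1, an eraser, had the largest fitted differences in pan-BC against rods and in rods against blue cones. Its normalized counts were 1200, 942 and 1153 for the 3 pan-BC libraries, 825, 1188 and 750 for ON-BC, and 792, 1319 and 862 for OFF-BC, against 452, 292 and 211 for blue cones and 23.3, 19.5 and 20.5 for rods. Every bipolar library stood above every blue cone library, and every blue cone library above every rod library. The mean in pan-BC was 52.1 times that in rods and 3.45 times that in blue cones, with fitted log2 differences of 5.63 ± 0.25 (SE, n = 3 per population; adjusted p = 2.78e-11, limma test against a 2-fold change) and 1.85 ± 0.25 (adjusted p = 0.00619). Rods were also lower than blue cones (log2 difference, rod minus blue cone, -3.79 ± 0.25; adjusted p = 7.70e-08 in the limma 2-fold test). Rods held 1.92% of the Tet1 level of pan-BC and 0.741 to 1.07% of its bipolar marker level, while blue cones held 29.0% of the Tet1 level and 12.7 to 14.8% of the marker level, or 0.725 to 1.21% without Cabp5. The part of carried-over bipolar RNA in these values was not tested.

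Tet3, another eraser, was highest in rods. Its normalized counts were 4330, 4188 and 4566 for rods, 1079, 775 and 678 for blue cones, 1029, 961 and 1177 for pan-BC, 1081, 1077 and 962 for ON-BC, and 854, 934 and 800 for OFF-BC. Only the 3 rod libraries were high, and the 12 other libraries lay together. Rods exceeded pan-BC 4.13-fold and blue cones 5.17-fold (fitted log2 differences of 2.05 and 2.40, SE 0.14 for both; adjusted p = 2.67e-06 and 2.98e-07 in the limma 2-fold test). Pan-BC and blue cones differed by 0.35 ± 0.14 on the log2 scale (adjusted p = 0.0328 in the limma test for any difference), with ranges that overlapped, and the value fell short of the threshold in 7 of 15 alternative analyses.

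Tet2, the third eraser, had the highest level per kilobase of the 3 outside rods. Its normalized counts were 2849, 2662 and 3000 for rods and 2623, 2038 and 1727 for blue cones, against 1198, 1269 and 1440 for pan-BC, 1585, 1212 and 1284 for ON-BC and 1200, 1420 and 1240 for OFF-BC. All 6 photoreceptor libraries were above all 9 bipolar libraries. Pan-BC was lower by 1.13 ± 0.14 on the log2 scale than rods and by 0.69 ± 0.14 than blue cones, differences that passed the limma test for any difference (adjusted p = 1.38e-06 and 2.96e-04) and not the test against 2-fold (adjusted p = 0.376 and 1). Rods were above blue cones by 0.43 ± 0.14 (adjusted p = 0.0146, limma, any difference), a call kept in 11 of 15 alternatives.

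**Figure D1:**
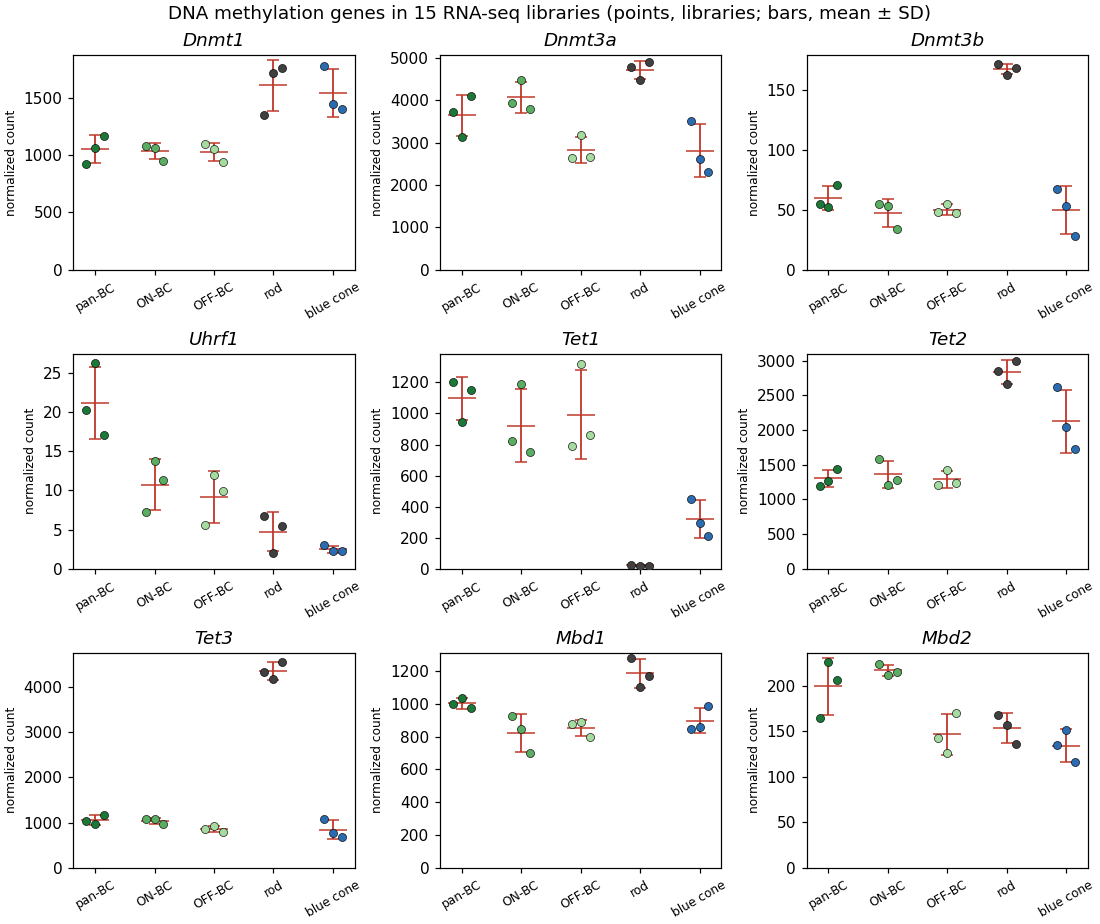
Normalized count (linear axis from 0) of each of the 9 genes in 15 RNA-seq libraries of 5 populations; points are libraries and red bars the mean with SD (n = 3). Tet1 is near 0 for rods only, Tet3 and Dnmt3b are high in rods only, and Tet2 and Dnmt1 are higher in both photoreceptor populations than in the 3 bipolar populations.

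Corrected for length, the TET family was higher in total in rods alone, while the sums of the other populations overlapped. Its make-up differed between rods, blue cones and bipolar cells. The sum of the 3 TET genes per kilobase of exon was 681 ± 34.5 (SD, n = 3) normalized counts for rods, 325 ± 75.6 for blue cones, 308 ± 26.4 for pan-BC, 301 ± 24.5 for ON-BC and 282 ± 37.6 for OFF-BC. Tet1 made up 24.9% ± 2.53 of this sum in pan-BC, 21.3% ± 4.97 for ON-BC and 24.1% ± 3.61 for OFF-BC, 6.66% ± 1.03 for blue cones and 0.216% ± 0.0202 for rods. Tet3 made up 54.5% ± 0.482 for rods, 21.4 to 22.5% for single blue cone libraries and 29.2% ± 0.535 for pan-BC. Tet2 made up 71.3% ± 1.31 for blue cones and near equal shares elsewhere, from 45.2% for rods to 49.7% for OFF-BC. Lowest and highest shares of single libraries did not overlap between rods, blue cones and pan-BC for Tet1 and for Tet3. These shares were computed from the same levels as above and were not tested on their own.

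**Figure D2:**
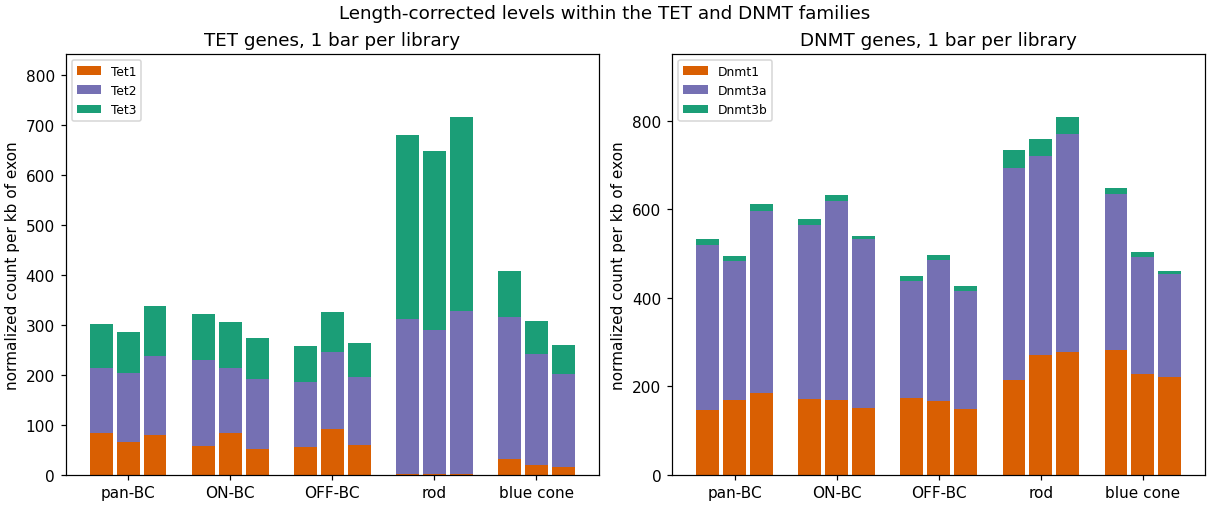
Normalized count per kilobase of annotated exon (stacked, linear axis from 0) for the TET genes, left, and the DNMT genes, right, with 1 bar per library and 3 libraries per population. The rod bars reach 647 to 716 for the TET genes, made up of Tet2 and Tet3, while Tet1 is seen as the lowest part of the bipolar bars; Dnmt3a is the largest part of every DNMT bar.

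Of the writers, Dnmt3a, the de novo enzyme of postmitotic neurons, was the highest gene of the 9 in every population per kilobase: 474 ± 21.4 (SD, n = 3) normalized counts per kilobase in rods, 409 ± 36.6 for ON-BC, 367 ± 48.4 for pan-BC, 283 ± 30.8 for OFF-BC and 282 ± 62.1 for blue cones. Its normalized counts were 4773, 4481 and 4894 for rods, 3722, 3132 and 4087 for pan-BC, 3924, 4482 and 3798 for ON-BC, 2630, 3171 and 2652 for OFF-BC, and 3502, 2613 and 2314 for blue cones. The 3 ON-BC libraries were above the 3 OFF-BC libraries, and rods were above pan-BC by a narrow gap and above blue cones by a wide one. ON-BC exceeded OFF-BC 1.44-fold (log2 difference 0.53 ± 0.14, adjusted p = 0.00971, limma, any difference; 0.0030 to 0.0454 over 16 alternatives) and rods exceeded blue cones 1.68-fold (0.77 ± 0.14, adjusted p = 1.99e-04). The smaller differences of pan-BC from rods (-0.38 ± 0.14, adjusted p = 0.0221, limma) and from blue cones (0.39 ± 0.14, adjusted p = 0.0199) passed the same test in 11 and 8 of 15 alternatives. In order of level, no pair of neighbours (rods, ON-BC, pan-BC, OFF-BC, blue cones) was separated beyond its spread.

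Dnmt1, the maintenance methyltransferase that is needed at replication and is still made in many neurons, was at 1353, 1712 and 1755 normalized counts for rods and 1779, 1444 and 1403 for blue cones, and at 921, 1063 and 1165 for pan-BC, 1079, 1063 and 951 for ON-BC, and 1095, 1050 and 939 for OFF-BC. All 6 photoreceptor libraries were above all 9 bipolar libraries. Pan-BC was lower than rods by 0.61 ± 0.13 and lower than blue cones by 0.55 ± 0.13 on the log2 scale (adjusted p = 3.52e-04 and 9.28e-04, limma, any difference). Rods and blue cones differed by 0.06 with a 95% interval from -0.21 to 0.33, and ON-BC and OFF-BC by 0.01 with an interval from -0.27 to 0.28.

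Dnmt3b, the de novo enzyme best known from early embryos, was low but raised in rods: 172, 163 and 169 normalized counts for rods against 55.3, 52.5 and 71.0 for pan-BC, 54.7, 52.9 and 33.9 for ON-BC, 48.1, 55.3 and 47.5 for OFF-BC and 67.7, 53.1 and 28.1 for blue cones. As with Tet3, the 3 rod libraries stood apart from all 12 others. Rods exceeded blue cones 3.38-fold (log2 difference 1.82 ± 0.30, adjusted p = 0.0462 in the limma 2-fold test, passed in 5 of 15 alternatives) and pan-BC 2.82-fold (1.49 ± 0.30, adjusted p = 0.131 in the 2-fold test and 2.44e-04 in the test for any difference). Per kilobase it was at 38.8 ± 1.04 normalized counts for rods and 5.06% of the DNMT sum there, against 2.51% for pan-BC.

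Uhrf1, which couples Dnmt1 to the replication fork, was barely detected in any population. Its libraries held 14 to 26 reads in pan-BC, 7 to 14 for ON-BC, 5 to 10 for OFF-BC, 2 to 7 for rods and 3 to 4 for blue cones. The normalized counts were 20.2, 26.2 and 17.1 for pan-BC, 7.22, 13.7 and 11.3 for ON-BC, 5.59, 12.01 and 9.93 for OFF-BC, 6.79, 2.05 and 5.40 for rods, and 3.01, 2.27 and 2.22 for blue cones. Pan-BC was above every photoreceptor library, with log2 differences of 2.03 ± 0.45 from rods and 2.65 ± 0.45 from blue cones on a scale of log2(normalized count + 1) (adjusted p = 0.0409 and 0.00365, limma 2-fold test). The first of these calls was kept in 6 of 14 alternatives and the second in 14 of 14, and a minimum mean of 50 normalized counts removes the gene. Pan-BC was also above ON-BC and OFF-BC, though those differences missed the threshold (adjusted p = 0.305 and 0.0802).

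Uhrf1 is commonly high in dividing cells, and other genes of cell division, chosen as a list of 14, were given beside it. Of these, 9 passed the filter, and their median log2 difference between pan-BC and rods was -1.55, with 0 higher in pan-BC and 4 lower in the 2-fold test (43.6% of all genes were called) and 2 higher and 6 lower for any difference (79.5%). The 2 higher ones were Ccnb1, a mitotic cyclin (2.17 ± 0.75, adjusted p = 0.0141, limma), and Birc5, a protein of the dividing cell's chromosomes (1.80 ± 0.69, adjusted p = 0.0250). All 14 together summed to 804 to 909 normalized counts for pan-BC and to 2160 to 2396 for rods, opposite to these 2. Mki67 and Top2a, which mark cycling cells, were at 4.13 normalized counts or less in every library.

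The 2 readers moved little. Mbd1, which binds methylated CpGs and also has a domain for unmethylated ones, was at 1283, 1103 and 1171 normalized counts for rods, 998, 1038 and 974 for pan-BC, 849, 859 and 985 for blue cones, 929, 845 and 699 for ON-BC and 875, 890 and 799 for OFF-BC. Rods were above blue cones by 0.40 ± 0.11 on the log2 scale (adjusted p = 0.00589, limma, any difference), and the difference between pan-BC and rods was -0.24 with an interval from -0.48 to 0.00. Mbd2 was at 224, 212 and 215 normalized counts for ON-BC and 165, 226 and 207 for pan-BC, and at 143, 126 and 170 for OFF-BC, 168, 157 and 136 for rods and 135, 152 and 116 for blue cones. ON-BC libraries were all above OFF-BC libraries, a 1.48-fold difference (log2 0.58 ± 0.18, adjusted p = 0.0252, limma, any difference), which passed in 10 of 16 alternatives. With the replicate number as a block in a fit of ON-BC and OFF-BC alone it was 0.58 with an adjusted p of 0.0575 by limma. Pan-BC exceeded blue cones by 0.56 ± 0.18 (adjusted p = 0.00977).

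The numbers of members called are given beside the share of all tested genes called, and were not tested against it. In the 2-fold test of pan-BC against rods 3 of 9 members were called, Tet1 and Uhrf1 higher and Tet3 lower, where 43.6% of all tested genes were called; in the test for any difference 7 were called, where 79.5% of all genes were. Between pan-BC and blue cones 2 members were called at 2-fold (36.3% of all genes) and 7 for any difference (76.3%). Between rods and blue cones 3 were called at 2-fold, Tet3 and Dnmt3b higher and Tet1 lower (15.9% of all genes), and 6 for any difference (57.5%). Between ON-BC and OFF-BC none was called at 2-fold by limma, edgeR or DESeq2 (6.55% of all genes) and 2, Dnmt3a and Mbd2, for any difference (27.0%). The median log2 difference of the members between pan-BC and rods was -0.38, beside 0.21 over all genes, and between rods and blue cones 0.43, beside -0.0047 over all genes. When libraries were scaled by their totals alone, the median over all genes between pan-BC and rods moved to 0.55, 74.0% of the 2-fold calls were higher in pan-BC in place of 63.8%, the calls of Dnmt1 and Dnmt3a were lost and Mbd1 changed sign, while Tet1, Tet2 and Tet3 kept theirs.

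**Figure D3:**
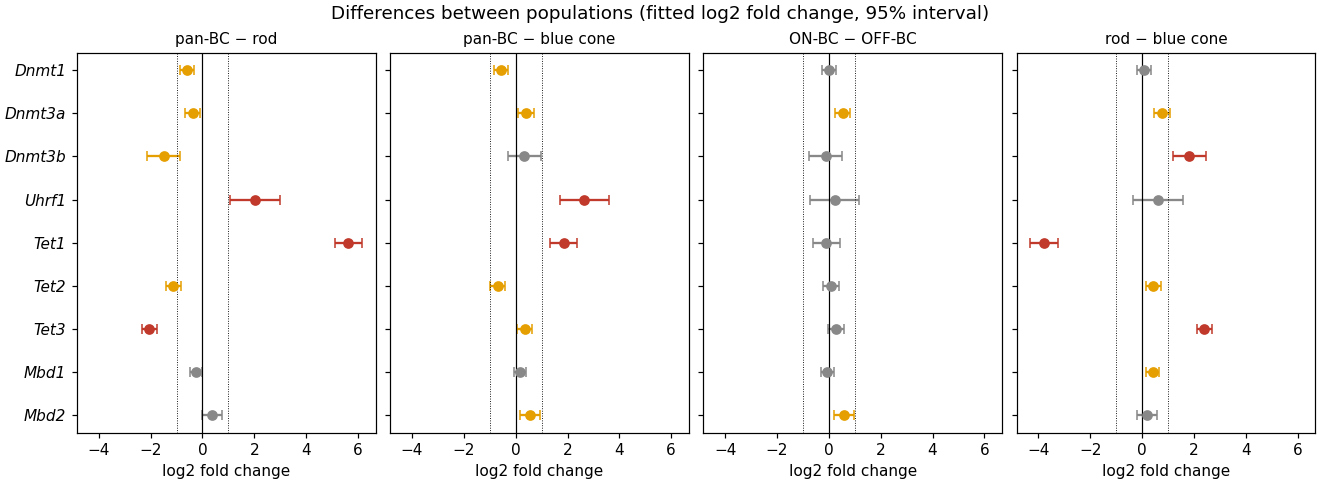
Fitted log2 fold changes of the 9 genes in 4 comparisons with 95% intervals (n = 3 libraries per population); red marks a call in the 2-fold test, orange a call in the test for any difference only, and grey no call. Dotted lines mark a 2-fold change; Tet1 lies farthest from 0 for pan-BC against rods, at 5.63, and no gene of the ON-BC against OFF-BC panel lies beyond a 2-fold change.

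For each member the 3 genes with the most similar pattern were found by the Pearson correlation of log2(normalized count + 1) over the 15 libraries, which describes likeness across 5 populations and carries no test. For Tet1 these included Celf3 (r = 0.992) and Thsd7a (0.990), with means of 27.5 and 9.62 normalized counts for rods and 2339 and 3023 for pan-BC. For Tet3 they were Gigyf2 (0.989), Tnrc6b (0.988) and Phlpp2 (0.985), and Gigyf2 was also first for Dnmt3b (0.968), followed by A530054K11Rik (0.967) and Gpatch8 (0.960). For Tet2 they were Zfp131 (0.988), Zc3h7a (0.984) and Fnbp4 (0.982). Likeness was lower for the other members: Dnmt1 with Zfp2, Lin9 and Pramef8 (0.955, 0.955 and 0.954), Dnmt3a with Dmxl2, Klhl15 and Prr14l (0.952, 0.948 and 0.933), Uhrf1 with Pced1a, Pdss2 and Eif4ebp2 (0.943, 0.922 and 0.922), Mbd2 with Rasgef1c, Prr15 and Tfcp2l1 (0.922, 0.910 and 0.904) and Mbd1 with 4933406J10Rik, Zfp112 and Zfp84 (0.907, 0.901 and 0.897).

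Other genes of the pathway were described by 6 lists of 69 genes in all. The 2-fold counts of every list stand beside the shares of all tested genes called. These shares were 43.6% in pan-BC against rods, 36.3% in pan-BC against blue cones, 6.55% between ON-BC and OFF-BC and 15.9% between rods and blue cones. Of the writers and their partners, 7 of 9 passed the filter, and 2 were higher in pan-BC against rods by the 2-fold test with none lower: Zfp57, a zinc finger protein that keeps methylation at imprinted regions (log2 difference 6.62 ± 0.65, adjusted p = 5.67e-07, limma), and its partner Trim28 (1.68 ± 0.15, adjusted p = 7.31e-04). Zfp57 had means of 482 normalized counts for pan-BC, 635 for OFF-BC, 167 for ON-BC, 166 for blue cones and 6.51 for rods. Against blue cones only Trim28 was called, higher in pan-BC by 1.48 ± 0.15 (adjusted p = 0.0108), and between rods and blue cones only Zfp57, lower in rods. Dnmt3l, the inactive helper of the de novo enzymes, was at 0 in all 12 libraries other than rods and at 1.94 to 7.17 normalized counts for rods.

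Genes of demethylation and base excision split in both directions. Of 12 that passed, 3 were higher and 3 lower in pan-BC by the 2-fold test against rods (43.6% of all genes were called), with a list median of -0.75. The Gadd45 genes, stress-induced proteins linked to active demethylation, went opposite ways: Gadd45g was at 2093 ± 401 (SD, n = 3) normalized counts for pan-BC, 2218 for ON-BC, 262 for OFF-BC, 155 for blue cones and 84.7 for rods (pan-BC minus rod 4.63 ± 0.28, adjusted p = 3.01e-09, limma), while Gadd45a was at 1088 for rods and 120 for pan-BC (-3.17 ± 0.21, adjusted p = 4.99e-08). Gadd45g was also the one gene of the list that was higher in ON-BC than in OFF-BC by the 2-fold test (3.14 ± 0.28, adjusted p = 2.57e-05), and the DNA glycosylase gene Neil2 the one that was lower (-2.29 ± 0.40, adjusted p = 0.0403). Against blue cones 2 were higher, led by Gadd45g (3.77 ± 0.28, adjusted p = 1.71e-07), and 3 lower, with Smug1, a uracil-DNA glycosylase that also excises oxidized bases, lowest: 553 normalized counts for pan-BC, 3180 for rods and 7299 for blue cones (pan-BC minus blue cone -3.71 ± 0.14, adjusted p = 4.56e-11). Between rods and blue cones only Gadd45a was called, higher in rods (2.85 ± 0.21, adjusted p = 1.21e-06). Tdg, the glycosylase that removes the oxidation products of the TET enzymes, did not pass the filter, with means of 0 to 1.01; copies of it elsewhere in the genome, annotated as Tdg-ps and Tdg-ps2, can share its reads, so its level is uncertain.

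Among readers of methylated DNA all 8 passed the filter, and for any difference 7 were higher and 0 lower in pan-BC against rods, where 79.5% of all genes were called, with a list median of 0.85 on the log2 scale beside 0.21 over all genes. By the 2-fold test only Zfp57, which stands in 2 lists, was called against rods, and only Zbtb38, a zinc finger repressor, against blue cones (1.92 ± 0.16, adjusted p = 1.02e-04, limma). Of the 8 CXXC genes, whose zinc finger binds unmethylated CpG, only Cxxc5 was called at 2-fold: it exceeded its rod level in pan-BC (1.32 ± 0.14, adjusted p = 0.0380) and was lower in rods than in blue cones (-1.77 ± 0.14, adjusted p = 2.35e-04).

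Of 15 partners of Mbd2 and Mbd1 that passed the filter, 5 were higher and 1 lower in pan-BC than in rods at 2-fold (43.6% of all genes were called), and 5 higher and 1 lower than in blue cones (36.3%). The lower one was in both cases Mta2, a core subunit of NuRD, at 904 ± 27.7 (SD, n = 3) normalized counts for pan-BC, 3538 for blue cones and 8642 for rods (pan-BC minus rod -3.25 ± 0.10, adjusted p = 2.00e-12, limma). Against rods its paralogs went the other way: Mta1 was at 752 for pan-BC and 67.5 for rods (3.49 ± 0.17, adjusted p = 4.61e-10), and Mta3 was at 105 for pan-BC, 189 for blue cones and 1.40 for rods (5.68 ± 0.38, adjusted p = 5.71e-09). Against blue cones Mta3, like Mta2, was lower in pan-BC (-0.87 ± 0.38, adjusted p = 0.0465, limma, any difference). In that comparison the largest rise was that of Cdk2ap1, a small NuRD subunit (2.54 ± 0.37, adjusted p = 0.00142), and between rods and blue cones 1 gene was higher in rods, Mta2 (1.29 ± 0.10, adjusted p = 0.0302), and 2 lower, led by Mta3.

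Genes that supply the methyl donor S-adenosylmethionine and the TET cofactor 2-oxoglutarate were also split. Of 15 tested, 4 were higher and 6 lower in pan-BC than in rods at 2-fold (43.6% of all genes were called), with Ahcyl2 the highest (3.39 ± 0.14, adjusted p = 6.46e-11, limma). Mat2a, the catalytic subunit that makes S-adenosylmethionine, was at 5764 normalized counts for pan-BC, 18373 for blue cones and 20650 for rods (pan-BC minus rod -1.84 ± 0.13, adjusted p = 1.97e-05). Against blue cones 2 were higher, led by Idh3g of the mitochondrial enzyme that makes 2-oxoglutarate (1.51 ± 0.13, adjusted p = 0.00171), and 4 lower, led by Ahcy (-2.87 ± 0.35, adjusted p = 1.41e-04). Between rods and blue cones Ahcyl2 (-3.38 ± 0.14) and Idh3a were lower in rods.

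**Figure D4:**
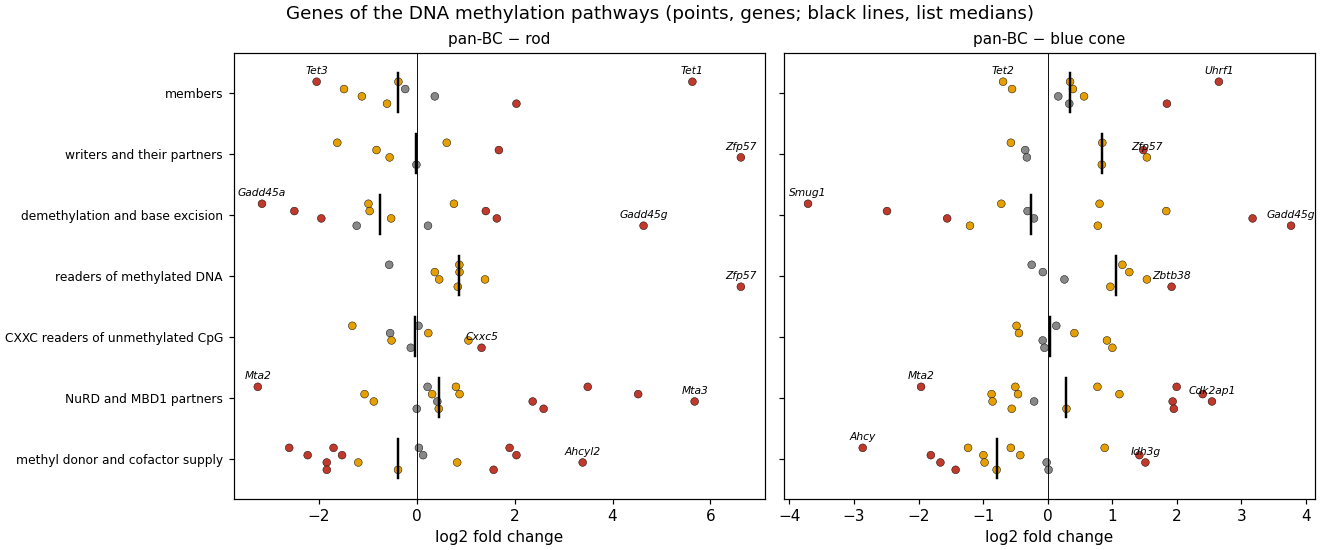
Fitted log2 fold changes of the 9 members and of the tested genes of 6 pathway lists in pan-BC against rods, left, and against blue cones, right; points are genes, black lines list medians, red marks a call in the 2-fold test, orange a call for any difference only, grey no call, and the lowest or highest gene of a list is named where it is described in the text. Of the readers of methylated DNA 7 of 8 were called to the right of 0, with a median of 0.85 against rods, and the NuRD list runs from Mta2 at -3.25 to Mta3 at 5.68.

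At the chromatin level, 86 accessible regions of 200 bp lay in the promoters of the 9 genes or had one of them as the gene with the nearest start; a region near a gene is not thereby one that acts on it. A promoter was taken as 1000 bp before to 100 bp after a RefSeq start, and 15 regions fell in one. Called for any difference were 7 of these 15 between pan-BC and rods (71.9% of all promoter regions), 5 between pan-BC and blue cones (57.0%), 1 between ON-BC and OFF-BC (14.8%) and 6 between rods and blue cones (49.4%). In the 2-fold test 1 was called between pan-BC and rods (31.0%), 1 between rods and blue cones (6.58%), none between pan-BC and blue cones (15.3%) and none between ON-BC and OFF-BC (1.27%). The median log2 difference between pan-BC and rods was -0.27 over these 15 and -0.37 over all promoter regions.

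The Tet1 promoter was weakly open in all populations. The region 124 bp before the start, at chr10:62887349-62887548 within the printed sequence, had normalized ATAC-seq counts of 29.6 and 31.4 for pan-BC, 67.2 and 54.2 for ON-BC, 29.6 and 36.0 for OFF-BC, 9.35 and 21.7 for rods, 15.5 and 12.3 for blue cones, while green cones had 9.22 and 22.5. Every bipolar library was above every photoreceptor library, but the log2 difference of pan-BC from rods, 1.04 ± 0.48 (n = 2), and from blue cones, 1.09 ± 0.48, missed the threshold (adjusted p = 0.0603 and 0.0589, limma, any difference). In the peak lists, a peak overlapped the Tet1 promoter in 6 of 6 bipolar libraries and in 3 of 8 photoreceptor libraries, which include 2 double-sorted green cone libraries with none, and in 5 libraries with a minimum of 10 on the -log10 q scale. The other 8 genes had a promoter peak in all 14 libraries. Peak calls depend on library depth, and 29410 to 94468 peaks were called per library.

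At the other TET genes the promoters were open in all populations. The Tet3 region at the start of the shorter transcript, chr6:83441584-83441783, had 621 and 513 normalized ATAC-seq counts for rods, 306 and 314 for pan-BC, 288 and 327 for ON-BC, 209 and 242 for OFF-BC, 313 and 309 for blue cones, while green cones had 337 and 287. As for its RNA, only rods were high at this region (pan-BC minus rod -0.86 ± 0.16, adjusted p = 1.01e-04, limma, any difference, and rod minus blue cone 0.86 ± 0.16, adjusted p = 4.44e-04). The promoter regions at the longer transcript's start were also highest in rods, but not every difference passed the same test. The region 66 bp after that start missed the threshold in both comparisons (-0.82 ± 0.44 and 0.84 ± 0.44, adjusted p = 0.0983 and 0.150, limma). The region 268 bp before it passed for pan-BC minus rod (-0.83 ± 0.30, adjusted p = 0.0199), but not for rod minus blue cone (0.53 ± 0.30, adjusted p = 0.189). At Tet2 the region over the start did not pass the test in any of the 4 comparisons, while the region 611 bp upstream, chr3:133544902-133545101, had 92.0 and 136 for pan-BC, 18.7 and 27.1 for rods and 31.1 and 41.2 for blue cones (pan-BC minus rod 2.26 ± 0.33, adjusted p = 0.00178 in the 2-fold test). Its direction was opposite to that of the Tet2 RNA, which was lower in pan-BC. The region 312 bp upstream, chr3:133544603-133544802, had 80.0 and 120 for pan-BC, 38.2 and 38.6 for rods and 81.6 and 66.5 for blue cones. There pan-BC minus rod was 1.33 ± 0.28 and rod minus blue cone -0.92 ± 0.28 (adjusted p = 3.60e-04 and 0.0161, limma, any difference). Both directions were opposite to those of the Tet2 RNA.

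Among the writers, the region over the first Dnmt3a start, chr12:3806875-3807074, was more open in rods, with 320 and 303 normalized ATAC-seq counts, than in pan-BC with 129 and 153, ON-BC with 146 and 139, OFF-BC with 97.0 and 125, and blue cones with 82.9 and 78.8. The difference between rods and blue cones, 1.93 ± 0.23, passed the 2-fold test (adjusted p = 0.00585, limma), and that between pan-BC and rods, -1.14 ± 0.23, passed for any difference (adjusted p = 1.91e-04). The region 556 bp upstream had 240 and 262 for ON-BC and 159 and 159 for OFF-BC, the 1 promoter region called between these 2 populations (0.66 ± 0.18, adjusted p = 0.0122), a call that was lost with TMM scaling, library totals or edgeR, without ON-BC replicate 2, and in fits of ON-BC and OFF-BC alone (adjusted p = 0.0975 with the replicate block and 0.061 with no block). The promoter regions of Dnmt1 over its main start (416 and 413 for rods, 282 and 242 for pan-BC) and of Uhrf1 (331 and 287 for rods, 163 and 160 for pan-BC) were also higher in rods than in pan-BC (-0.67 ± 0.18 and -0.93 ± 0.21, adjusted p = 0.00263 and 6.07e-04), for Uhrf1 against the direction of its RNA. At Dnmt3b the region at the start had 38.4 and 39.3 for pan-BC, 55.3 and 51.5 for rods and 51.8 and 72.3 for blue cones, and no difference passed the test. The same held for Mbd1, while the Mbd2 region, the most open of the 15, passed only between pan-BC and blue cones (0.35 ± 0.14, adjusted p = 0.0382).

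Away from the promoters of the 9 genes, 71 regions had a member as the nearest gene. They were 22 at Dnmt3a, 14 at Tet2, 13 at Mbd2, 10 at Tet1, 7 at Tet3, 4 at Dnmt3b and 1 at Dnmt1. The counts that follow cover the 66 of them that passed the filter on low counts and lay in no promoter of any gene. By the 2-fold test 21 were more open and 9 less open in pan-BC than in rods (55.3% of all such regions were called), 14 more and 4 less open than in blue cones (39.6%), 3 more and 1 less open in ON-BC than in OFF-BC (8.48%; of all 2-fold calls in that comparison 62.1% were higher in ON-BC, and 50.8% with TMM scaling), and 3 more and 7 less open in rods than in blue cones (10.6%). The median log2 difference between pan-BC and rods was 0.90 over these regions and 1.67 over all regions away from promoters.

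Within the introns of Tet1, several regions were open in bipolar cells and cones and low in rods. The region 36204 bp into the gene had 78.4 and 82.1 normalized ATAC-seq counts for pan-BC, 58.2 and 87.8 for ON-BC, 57.9 and 52.6 for OFF-BC, 40.1 and 39.0 for blue cones, 28.4 and 29.6 for green cones, and 4.67 and 8.13 for rods. As for the Tet1 RNA, bipolar libraries were highest, blue cones lower and rods lowest, with pan-BC above rods by 3.50 ± 0.35 and rods below blue cones by 2.50 ± 0.35 on the log2 scale (adjusted p = 6.90e-06 and 0.00475, limma 2-fold test). Not all of the 10 regions at Tet1 passed the filter on low counts. At 2-fold, 4 were called more open in pan-BC and 1 in rods, beside 55.3% of all regions away from promoters. The region more open in rods, 42680 bp into the gene, had 85.7 and 100 for rods against 10.4 and 10.8 for pan-BC (-3.01 ± 0.44, adjusted p = 4.16e-04, limma 2-fold test).

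At Tet3, 2 of the 7 regions away from its promoters were called between pan-BC and rods, both intronic and higher in rods. In that comparison 55.3% of all regions away from promoters were called. The region 6249 bp into the gene from the shorter transcript's start had 404 and 345 normalized ATAC-seq counts for rods, 186 and 153 for blue cones, 207 and 214 for green cones and 29.9 to 79.8 in the 6 bipolar libraries (pan-BC minus rod -2.98 ± 0.24, adjusted p = 1.63e-06, limma 2-fold test; pan-BC minus blue cone -1.84 ± 0.24, adjusted p = 0.00590). It was open in blue cones too, where the Tet3 RNA was not high. The region 2625 bp into the gene had 153 and 136 for rods, 33.7 and 24.6 for blue cones and 4.80 to 20.4 in bipolar cells (pan-BC minus rod -4.13 ± 0.46, adjusted p = 1.05e-05). At Tet2 the region 72858 bp upstream had 315 and 311 for rods, 131 and 197 for blue cones and 25.4 to 64.7 in bipolar cells (-3.01 ± 0.31, adjusted p = 1.45e-05).

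**Figure D5:**
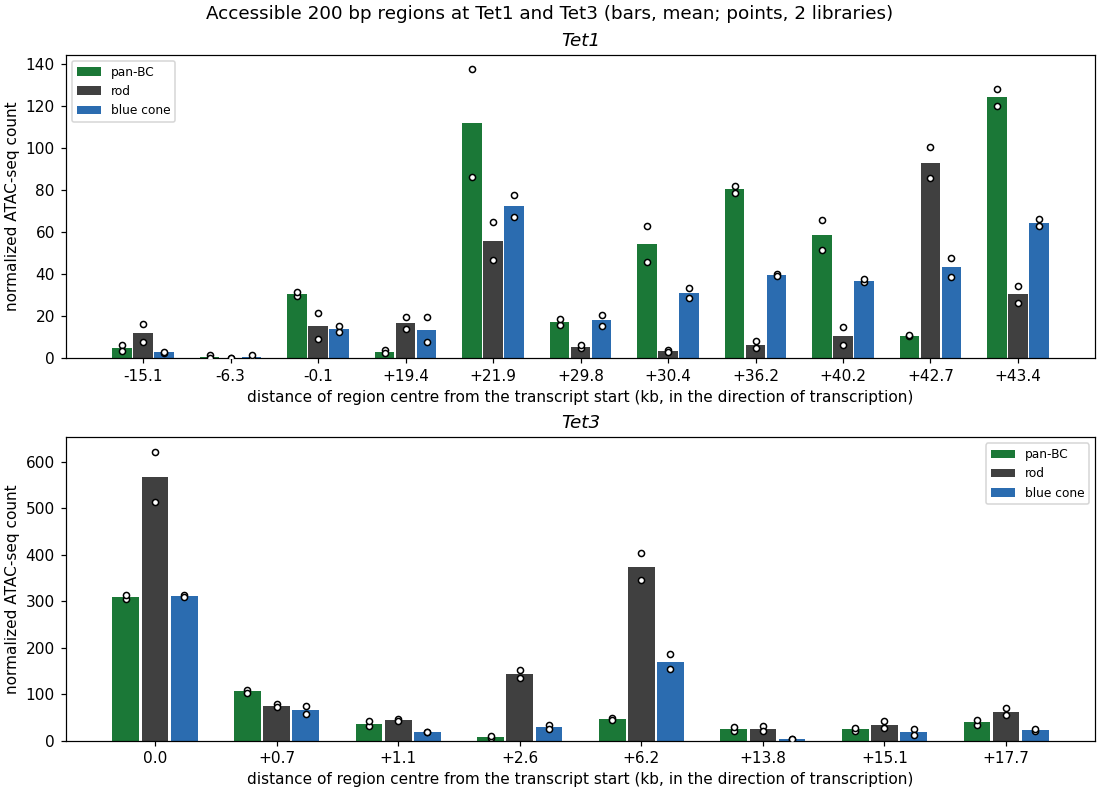
Normalized ATAC-seq count (bars, mean; points, 2 libraries each; linear axis from 0) in pan-BC, rods and blue cones for each region at Tet1 and at the shorter Tet3 transcript, in order of distance from the transcript start and not spaced to scale; regions at the longer Tet3 transcript's start are not drawn. Examples at Tet1 are the regions 30436 and 36204 bp into the gene, where rods are lowest, and the one at 42680 bp, where rods are highest. Examples at Tet3 are the start and the regions at 2625 and 6249 bp, where rods are highest. Rods are lowest or highest in other drawn regions too.

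The other regions with the smallest p per gene between pan-BC and rods, in the test for any difference, varied in direction. For Dnmt3a it was an intronic region 3948 bp before the third start, chr12:3887697-3887896, with 147 and 177 normalized ATAC-seq counts for pan-BC, 20.2 and 25.8 for rods and 20.7 and 32.5 for blue cones (pan-BC minus rod 2.77 ± 0.30, adjusted p = 4.28e-05, limma 2-fold test), opposite to its start region. A neighbouring region 6655 bp before that start was instead highest in rods, at 153 and 182, against 18.1 and 17.3 for blue cones (rod minus blue cone 3.16 ± 0.33, adjusted p = 1.19e-04). A region 16397 bp after the second start separated ON-BC, at 110 and 146, from OFF-BC, at 8.08 and 7.79 (3.84 ± 0.73, adjusted p = 0.0127), in the direction of the Dnmt3a RNA. These last 2 were chosen after their values were seen. For Dnmt3b the region lay 183 bp after the start (149 and 115 for rods, 72.8 and 59.3 for pan-BC) and passed only for any difference (-0.98, adjusted p = 0.00187). For Dnmt1 it lay in an intron 9112 bp after the start at chr9:20952623. There no library of the 10 bipolar, rod and blue cone libraries was above 20.9, while green cones had 26.9 and 63.4. For Mbd2 it lay 302523 bp downstream of the start, with 175 and 157 for pan-BC and 0 and 0 for rods, and no fold is given against a group at 0.

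The sequences of the 3 regions at the TET genes are shown because, among regions away from promoters at each gene, they had the smallest p between pan-BC and rods in the test for any difference. They are given on the plus strand of the mm10 build, 200 bases each, with matches to 3 motifs on either strand in capitals: TAATCC, the site that Crx and Otx2 prefer, TAATTA, the site of many other homeodomain proteins, and CANNTG, the E-box of basic helix-loop-helix proteins. They lie at chr10:62851021-62851220 (Tet1, intron), chr6:83435330-83435529 (Tet3, intron) and chr3:133617149-133617348 (upstream of Tet2).
Tet1 region: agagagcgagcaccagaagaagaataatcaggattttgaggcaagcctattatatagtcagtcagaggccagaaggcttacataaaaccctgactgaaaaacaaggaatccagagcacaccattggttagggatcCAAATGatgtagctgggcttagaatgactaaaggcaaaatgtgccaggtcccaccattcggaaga
Tet3 region: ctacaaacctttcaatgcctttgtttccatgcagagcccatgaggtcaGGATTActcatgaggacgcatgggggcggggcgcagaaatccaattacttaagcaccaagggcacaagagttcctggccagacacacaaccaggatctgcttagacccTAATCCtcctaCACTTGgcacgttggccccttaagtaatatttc
Tet2 region: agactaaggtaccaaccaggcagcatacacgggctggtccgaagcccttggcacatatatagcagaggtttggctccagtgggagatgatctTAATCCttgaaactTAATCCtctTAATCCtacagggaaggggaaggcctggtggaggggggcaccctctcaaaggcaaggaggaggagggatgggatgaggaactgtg

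The Tet2 region, most open in rods and also open in cones, held 3 matches to TAATCC. The Tet3 region, likewise most open in rods, held 2. The Tet1 region, most open in bipolar cells, held none and 1 E-box. TAATCC occurred in 24.6% of all 94195 regions away from promoters, TAATTA in 5.91% and CANNTG in 72.4%, so that the E-box match in the Tet1 and Tet3 regions is common. None of the 3 held TAATTA. Other regions called at 2-fold between pan-BC and rods went both ways in TAATCC. The Tet3 region at 2625 bp, higher in rods, held 0 matches, and the Tet1 region at 42680 bp, also higher in rods, held 1. The Tet2 region 86199 bp downstream of the start, higher in pan-BC, held 2. A link between TAATCC and openness was not tested. None of the 12 RefSeq promoters of the members with an entry held TAATCC or TAATTA, where 7.06% and 5.29% of all promoters did.

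The genes lie across the mouse genome, with positions from RefSeq on GRCm38. Dnmt1 spans chr9:20907206-20959888 on the minus strand, Tet1 chr10:62804570-62887324 on the minus strand, Tet2 chr3:133463677-133544390 on the minus strand and Tet3 chr6:83362373-83456392 on the minus strand. Dnmt3a spans chr12:3806980-3914443, Dnmt3b chr2:153649449-153687730 and Uhrf1 chr17:56303337-56323486, all on the plus strand. No exon of the 9 overlapped an exon of another gene, so reads counted without regard to strand could not come from an exon of an overlapping neighbour.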

How the data were processed

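RNA-seq (15 libraries) and ATAC-seq (14) were processed by the authors on mm10: STAR 2.7.0d and HTSeq 1.9 on RefSeq genes, and Bowtie2 2.2.5 with duplicates removed, per the submitters' notes. The deposited tables hold a signal, counts divided by 1 size factor per library by the authors, and all values above 0 came out as whole reads (100%, tolerance 0.01). The deposited MACS2 peaks carry a score, fold enrichment, and -log10 p and -log10 q, called by the authors per library.

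Here log2(value + 1) was fitted with limma 3.58.1 in R 4.3.3 over all populations, with a test against a 2-fold change and one for any difference, Benjamini-Hochberg adjusted over 14024 genes or 108448 regions at 0.05 and tested on simulated data. edgeR 4.0.16 and DESeq2 1.42.0 on the recovered reads, other scalings, pseudocounts and filters, and each library left out were alternatives. Members and lists were chosen with earlier results of these data known. Named were all 9 members, the extreme called gene of each list and direction with up to 2 more, the 3 most similar genes, promoter regions, and 1 distal region per gene. Likeness, shares and motifs are descriptions. Some genes that this rule picks are not reported here.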

Additional observations from a re-analysis of the deposited data

How the results depend on the processing

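The calls of Tet1 and Tet3 between pan-BC and rods and between rods and blue cones held in all 15 alternatives. Scaling by library totals alone turned Mbd1 (pan-BC minus rod) to 0.11 from -0.24 and Dnmt1 (rod minus blue cone) to -0.00858 from 0.06, neither called, and left 0 promoter regions called at 2-fold between rods and blue cones. A minimum mean of 50 left 1 member called at 2-fold between pan-BC and blue cones (Uhrf1 is removed) and 602 of 919 genes between ON-BC and OFF-BC. Of the promoter regions called at 2-fold between pan-BC and rods, edgeR gave 2 and windows of 500 bp on both sides 0. All regions called at 2-fold between ON-BC and OFF-BC numbered 8010, but 12927 by edgeR, 4791 by DESeq2 and 3894 in a fit of those populations alone, added after seeing the data; between rods and blue cones edgeR gave 19112 against 10871. The 1 promoter region called for any difference between ON-BC and OFF-BC became 3 with a pseudocount of 5 and 0 with TMM, library totals, edgeR, the narrower fits or the 500 bp windows. On the longest transcript the pan-BC level per kilobase was 213 for Mbd1 and 108 for Mbd2. Causes were not tested.

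Libraries of ON-BC and OFF-BC with the same number had donors of the same genotype and the same age (postnatal days 43, 48 and 42 in RNA, 42 and 46 in ATAC-seq), though no label says that they were the same animals. Same-numbered deviations did not correlate in every pair (r = -0.076, 0.222 and -0.065 in RNA), nor did every library correlate best with its own number. With the replicate block 1 member (Dnmt3a) was called for any difference in RNA in place of 2 (Mbd2 was lost), 945 genes at 2-fold in place of 919, and in ATAC-seq 0 promoter regions for any difference (that of Dnmt3a was lost) and 7667 regions at 2-fold.

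Leaving out 1 library gave, between ON-BC and OFF-BC, 1 to 2 members called for any difference, 0 to 3 promoter regions, and 4175 to 6118 regions at 2-fold and 17057 to 20230 for any difference. It gave 3 to 5 promoter regions for any difference between pan-BC and blue cones, and between rods and blue cones 0 (without rod replicate 1) to 1 promoter region and 7091 to 8358 regions at 2-fold, and 24246 to 28713 for any difference. Uncalled differences that changed sign were, for ON-BC minus OFF-BC, Dnmt1 (-0.0588 to 0.0621), Dnmt3b (-0.24 to 0.0996), Mbd1 (-0.15 to 0.0528), Tet1 (-0.30 to 0.13), Tet2 (-0.0412 to 0.15) and Uhrf1 (-0.0635 to 0.46), Dnmt3b for pan-BC minus blue cone (-0.0217 to 0.60), and Dnmt1 for rod minus blue cone (-0.0108 to 0.18).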
